A study of Mus musculus with 6 samples.

Results

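Ubiquitin-specific proteases (USPs) are cysteine proteases that cut ubiquitin from proteins and so oppose the ubiquitin ligases that attach it. Those described here are the protein-coding mouse genes whose symbol starts with Usp and a number, Usp18 and Usp9y left out, with at least 10 counts in 3 or more of the 6 libraries. The rule gave 43 genes, of 54 protein-coding candidates and of 55357 gene identifiers in the table. One of the 43, Usp6nl, matches the name but encodes a GTPase-activating protein for Rab proteins, not a protease. The other 11 candidates fell short of the count rule. The rule used expression over both genotypes together, and no member met it through libraries of 1 genotype alone.

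The RNA came from the bone marrow of young mice, from sorted LT-HSCs, the long-term stem cells of blood that renew themselves and give rise to its lineages. Bone marrow cells without lineage markers that carried Sca-1, c-Kit and CD150 but no CD48 were sorted, from 3 Dcaf8 knockout mice and from 3 wild-type mice, and 50 cells were amplified per library. The sources used here do not give the kind of knockout allele, the mouse strain or the age in weeks. The design names 3 mice of each genotype, so p-values measure the spread between these animals and their libraries. Dcaf8 encodes a substrate receptor of the CUL4-DDB1 ubiquitin ligase, and the study set out to find how its knockout brings about functional defects of these cells.

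In haematopoiesis several USPs are known regulators. USP1 removes ubiquitin from FANCD2 and PCNA in DNA repair, USP3, USP16 and USP22 act on ubiquitinated histones, USP10 and USP7 set the stability of p53 and of its ligase MDM2, and USP8 sorts receptors at endosomes. Other members trim ubiquitin chains at the proteasome or recycle free chains, so that a cell keeps a pool of ubiquitin whichever substrates it degrades.

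Total counts lay between 14461864 and 22386387 per library. Dcaf8 stood at 52.6 ± 19.2 TMM-normalised CPM (read counts scaled to a common effective library size) in knockout libraries, against 262 ± 50.7 in wild-type libraries (SD, n = 3 each), with no overlap and a log2 fold change of -2.28 ± 0.28 (SE; edgeR adjusted p = 0.739, DESeq2 adjusted p = 2.13e-09). All 11 LT-HSC markers were counted in every library, and summed to 2534 to 2918 CPM in knockout and 2746 to 2861 CPM in wild-type libraries. Neutrophil granule genes, of which 10 of 11 were counted and Mmp8 was at 0 throughout, summed to between 3.33 and 28.1 CPM in the knockout libraries, against 7531 CPM in wild-type replicate 2 and 12.0 and 30.9 CPM in the other wild-type libraries. Knockout replicate 3 was the one library with Xist (50.8 CPM) and almost no Y-linked transcripts, so it stands apart in sex. Mitotic genes summed to 1512, 2711 and 1789 CPM in knockout replicates 1 to 3, against 2847, 767 and 589 CPM in wild-type replicates 1 to 3. In such bulk libraries fewer cells expressing a gene and less RNA per cell cannot be told apart.

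USP transcripts were not shown to differ between Dcaf8 knockout and wild-type LT-HSCs as a family. Together the 43 genes took 2495, 2466 and 2692 CPM in knockout libraries, against 2696, 2519 and 2831 CPM in wild-type libraries. These ranges overlap. With edgeR's quasi-likelihood test, adjusted by Benjamini-Hochberg over all 14592 genes tested, 0 of the 43 were called at an adjusted p under 0.05 (lowest adjusted p = 0.739), as were 0% of all genes, and DESeq2 also called 0 of the 43 against 0.471% of all genes. At an unadjusted p under 0.05 edgeR gave 2 of the 43, or 4.65%, against 5.82% of all genes, and both, Usp42 and Usp44, had lower values in knockout. By direction that is 0 higher, against 3.47% of all genes, and 2 lower, against 2.35% of all genes. DESeq2 gave 1 of the 43 such a p, against 5.27% of all genes.

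Of the 43, 24 had lower and 19 had higher values in knockout, so that 55.8% lay below 0 where 49.1% of all genes did. Their median log2 fold change was -0.04, against 0.01 over all genes. The genotypes did not overlap for Usp42 alone, which is 2.33% of the members, against 10.3% of all genes in either direction and 4.43% with knockout lower. Fold changes ran from -2.95 for Usp44 to 1.14 for Usp28, and 18 members lay within 0.2 of 0.

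**Figure D1:**
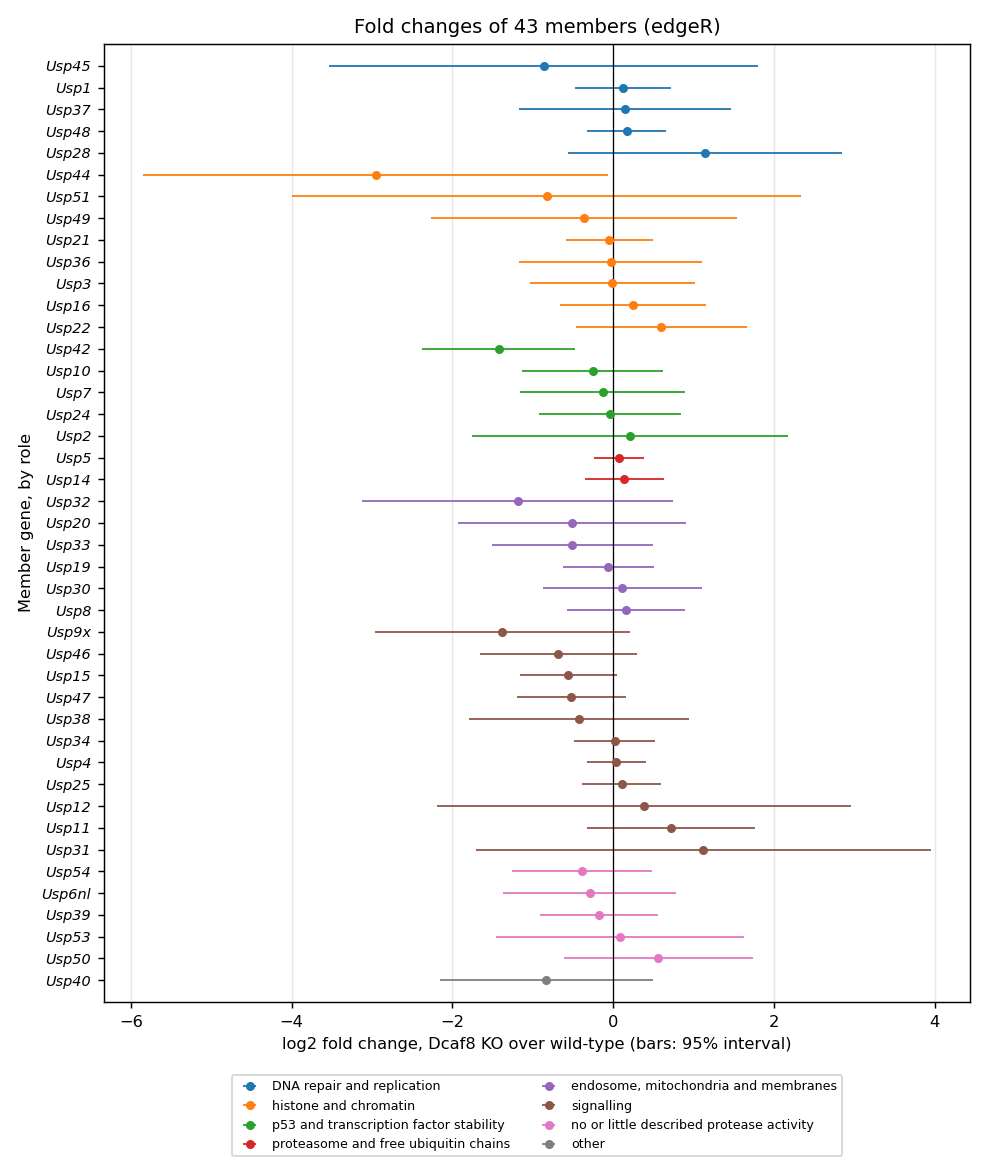
Log2 fold changes of the 43 members, knockout over wild-type (edgeR), grouped by role; points are estimates and bars 95% intervals, not adjusted for the number of genes. Intervals exclude 0 for Usp42 and Usp44 alone, and are narrowest for Usp5.

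Levels differed widely among the members. Per kilobase of exon, the scale on which genes can be compared, mean levels over the 6 libraries ran from 61.8 TMM-normalised CPM per kb for Usp5 down to 0.259 for Usp49. Usp5, Usp39, Usp1, Usp14 and Usp4 together made up 44.2% of the per-kb total of the family, and the 10 most abundant members 65.9%. The family's median, 6.98 CPM per kb, lay below the median of 12.1 over 11585 tested protein-coding genes.

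At the top, Usp5 recycles unanchored ubiquitin chains, and its level was 61.8 ± 2.94 CPM per kb over all libraries (SD, n = 6). Usp39 (59.6 ± 17.5 CPM per kb), a spliceosome factor of the USP fold that lacks protease activity, Usp1 (52.7 ± 12.1), Usp14 (51.5 ± 9.88) and Usp4 (44.9 ± 3.66) followed. The values of Usp39, Usp1 and Usp14 overlapped one another and those of Usp5, so these neighbours cannot be ordered. With exons of all annotated transcripts as the length, Usp39 came first and Usp5 came after Usp1, and 4 of the 5 genes stayed among the first 5, Usp4 giving its place to Usp8. At the bottom, Usp31 (0.576 ± 0.681 CPM per kb), Usp51 (0.362 ± 0.358) and Usp49 (0.259 ± 0.170) had the lowest means, and their values overlapped.

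**Figure D2:**
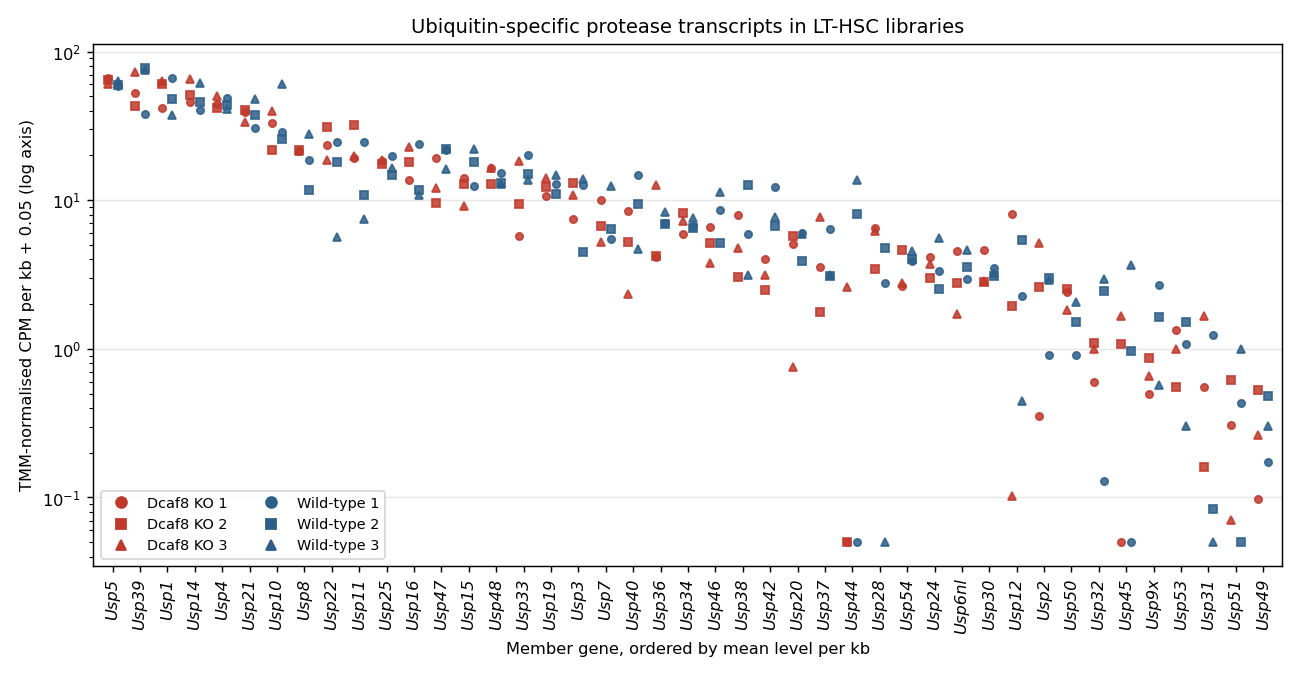
Level of each member in each library, as TMM-normalised CPM per kb of exon plus 0.05 on a log axis, ordered by the mean; red symbols are knockout and blue symbols wild-type libraries. The symbols of both genotypes intermix for nearly all genes; Usp42 is the exception, and zero counts sit at the lower edge for Usp44, Usp28, Usp45, Usp31 and Usp51.

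Among the proteases of DNA repair and replication, 0 of 5 had an unadjusted p under 0.05, against 5.82% of all genes. Of the 5, 4 had higher and 1 had lower values in knockout, where 49.1% of all genes had lower values. Usp1 stood at 149.5, 216 and 229 CPM in knockout replicates 1 to 3, against 237, 172 and 135 CPM in wild-type replicates 1 to 3. The ranges of the genotypes overlap almost fully, and the log2 fold change was 0.13 ± 0.26 (SE), with a 95% interval of -0.47 to 0.73. In both genotypes the library with the lowest Usp1 level was also the one with the lowest sum of mitotic genes, and the part of cell division in the Usp1 values was not tested. Usp37, which stabilises cyclin A at the start of S phase, stood at 25.7, 12.5 and 56.2 CPM in knockout and at 46.7, 22.2 and 22.7 CPM in wild-type libraries. Usp48, a regulator of Fanconi anaemia repair, kept to 74.0 to 95.6 CPM in knockout and 74.4 to 88.2 CPM in wild-type libraries. Usp28, a protease that stabilises MYC and 53BP1, had 27.1, 14.1 and 25.6 CPM in knockout libraries, against 11.3, 19.9 and 0 CPM in wild-type libraries. It had the highest fold change of the family, 1.14 ± 0.73 (SE), and the 0 in wild-type replicate 3 allows up to 0.152 CPM by counting error (3 counts). Leaving out wild-type replicate 3 gave a log2 fold change of 0.55, and leaving out wild-type replicate 2 gave 2.11, so single wild-type libraries decided its size.

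Histone-directed USPs overlapped between genotypes too. Of the 8, 1 had an unadjusted p under 0.05 (Usp44, lower), where 5.82% of all genes had one and 2.35% were lower. Usp22, the deubiquitinase of the SAGA coactivator, stood at 105, 137 and 82.8 CPM in knockout, against 108, 79.99 and 24.7 CPM in wild-type libraries. Wild-type replicate 3 lay far below the others. The log2 fold change was 0.60 ± 0.46 (SE). It was 0.19 when that library was left out, and 1.01 when wild-type replicate 1 was. Usp16, an H2A deubiquitinase needed for HSC function and for mitosis, stood at 43.4, 57.5 and 72.9 CPM in knockout and at 76.2, 37.5 and 34.7 CPM in wild-type libraries, with a log2 fold change of 0.25 ± 0.39 (SE). It ranged from 0.022 with knockout replicate 3 left out to 0.68 with wild-type replicate 1 left out. Usp16 shares 192 bases of exon with Cct8 on the opposite strand in the GRCm38 annotation. Cct8 had 9920 to 16574 counts per library, so some reads may belong to that gene. Usp3, another H2A deubiquitinase with a role in HSC maintenance, stood at 41.4, 72.6 and 60.4 CPM in knockout and at 70.2, 24.9 and 78.1 CPM in wild-type libraries. Its log2 fold change was -0.01 ± 0.44 (SE). Usp21, also described to act on H2A, kept to 78.9 to 95.4 CPM in knockout and 72.2 to 112 CPM in wild-type libraries.

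Usp44, which acts on H2B and in the spindle checkpoint, was counted in some libraries and missing in others. It had 0, 0 and 139 counts in knockout libraries, against 0, 408 and 653 counts in wild-type libraries. Both genotypes thus held libraries without a read, where 3 counts would be 0.132 and 0.209 CPM in knockout replicates 1 and 2 and 0.169 CPM in wild-type replicate 1. The log2 fold change was -2.95 ± 1.29 (SE; edgeR adjusted p = 0.851), and -2.16 without wild-type replicate 3. Without knockout replicate 3 both remaining knockout libraries were at 0, and the fitted value of -11.43 then depends on the prior count. DESeq2 gave a log2 fold change of -3.09 with an unadjusted p of 0.407. The 2 wild-type libraries with Usp44 reads were those with the low mitotic sums, and one of them, replicate 2, was the library with neutrophil transcripts. Knockout replicates 1 and 2, without a Usp44 read, had mitotic sums of 1512 and 2711 CPM, and knockout replicate 3, with Usp44 reads, had 1789 CPM. The part of cell division and of neutrophil transcripts in these values was not tested.

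The member with the smallest p was Usp42, a nuclear protease described to act on p53 and found fused to RUNX1 in human leukaemia. It stood at 20.6, 12.5 and 15.97 CPM in knockout libraries, against 63.3, 34.3 and 39.3 CPM in wild-type libraries. The genotypes did not overlap, with knockout lower throughout. The log2 fold change was -1.42 ± 0.41 (SE), with a 95% interval of -2.37 to -0.48, and did not pass over all genes (edgeR adjusted p = 0.739; DESeq2 adjusted p = 0.0896). Without 1 library at a time it ranged from -1.63 to -1.13. With wild-type replicate 2 and knockout replicate 3 both left out it was -1.56. Its exons overlap no other gene's in the GRCm38 annotation.

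The other p53-linked members overlapped between genotypes. Usp7, which deubiquitinates MDM2 and p53, stood at 49.1, 32.3 and 25.4 CPM in knockout and at 26.5, 30.9 and 60.3 CPM in wild-type libraries. Usp10, a p53 deubiquitinase required by HSCs, stood at 124, 81.2 and 149 CPM in knockout and at 108, 96.5 and 227 CPM in wild-type libraries. The log2 fold changes of Usp7 and Usp10 were -0.13 ± 0.44 and -0.26 ± 0.37 (SE), and both changed sign without wild-type replicate 3, to 0.32 and 0.24, as did that of Usp7 without knockout replicate 3, to 0.09. Usp24, a large protease described to act on p53, lay between 31.2 and 43.7 CPM in knockout and between 26.1 and 58.5 CPM in wild-type libraries. Usp2, a clock-controlled gene, varied from 1.40 to 23.6 CPM within the knockout group, against 3.94 to 13.7 CPM in wild-type libraries.

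Of the role groups, the 2 enzymes of the proteasome and of free chains, Usp5 and Usp14, had the smallest spread. Their median biological coefficient of variation was 18.5%, against 20.6% over all genes tested at 100 CPM or more. Both genes lay in that range (means of 199 and 243 CPM), and role and level were not separated. Usp5 stood at 212, 206 and 193 CPM in knockout, against 189, 189.6 and 203 CPM in wild-type libraries. Its log2 fold change was 0.07 ± 0.13 (SE) with a 95% interval of -0.24 to 0.38. Usp14, which trims chains on the 19S proteasome, stood at 216, 241 and 308 CPM in knockout and at 189, 215 and 290.1 CPM in wild-type libraries (log2 fold change 0.14 ± 0.21, SE; 95% interval -0.35 to 0.63). Its exons overlap those of Thoc1 on the opposite strand by 2169 bases in the GRCm38 annotation, so some reads may belong to that gene. The Usp5 paralogue Usp13 had no count in any library.

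Among membrane-associated USPs, 0 of 6 had an unadjusted p under 0.05, against 5.82% of all genes. Usp8, a regulator of endosomal sorting, stood at 89.7, 90.2 and 89.1 CPM in knockout, against 77.4, 48.7 and 115 CPM in wild-type libraries. The knockout libraries lay inside the wild-type range, with a log2 fold change of 0.16 ± 0.31 (SE). Usp30, which opposes mitophagy at the outer mitochondrial membrane, lay between 12.8 and 21.1 CPM in knockout and between 13.96 and 15.8 CPM in wild-type libraries. Usp19, anchored in the endoplasmic reticulum, lay between 56.4 and 73.9 CPM in knockout and between 57.9 and 77.6 CPM in wild-type libraries. Usp32, which acts on the late endosomal GTPase RAB7, was low, at 3.86 to 7.31 CPM in knockout and 0.563 to 20.5 CPM in wild-type libraries.

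In the signalling group, 0 of 11 had an unadjusted p under 0.05, against 5.82% of all genes. Of the 11, 6 had higher and 5 had lower values in knockout (45.5% lower, against 49.1% of all genes). Usp15, a regulator of TGF-beta receptor and NF-kB signals that is needed by HSCs, stood at 162, 147 and 105 CPM in knockout, against 143, 208 and 255 CPM in wild-type libraries. Wild-type replicate 1 lay within the knockout range, and the log2 fold change was -0.56 ± 0.26 (SE; 95% interval -1.16 to 0.05). It lay between -0.75 without wild-type replicate 1, where the unadjusted edgeR p fell under 0.05, and -0.35 when wild-type replicate 3 was left out. Usp9x, the X-linked protease that stabilises MCL1 and SMAD4, stood at 5.30, 9.74 and 7.24 CPM in knockout, against 31.5, 19.0 and 6.19 CPM in wild-type libraries. The female library, knockout replicate 3, lay between the male knockout libraries, and wild-type replicate 3 lay in the knockout range. The Usp9x log2 fold change was -1.38 ± 0.68 (SE). Leaving out wild-type replicate 3 gave -1.80, and leaving out wild-type replicate 1 gave -0.84. Usp47, which acts in base excision repair and Wnt signalling, stood at 114, 56.4 and 70.9 CPM in knockout and at 128, 131 and 95.4 CPM in wild-type libraries (log2 fold change -0.52 ± 0.29, SE). It was -0.87, with an unadjusted edgeR p under 0.05, when knockout replicate 1 was left out, and -0.35 when knockout replicate 2 was. Usp34, which acts on axin in Wnt signalling and is the longest member at 12.2 kb of exon, lay between 72.1 and 99.4 CPM in knockout and between 79.1 and 92.3 CPM in wild-type libraries. It shares 2137 bases of exon with Ahsa2 on the opposite strand in the GRCm38 annotation. Usp38 lay between 14.1 and 37.3 CPM in knockout and between 14.6 and 59.6 CPM in wild-type libraries, and shares 1174 bases of exon with Gm9725 on the opposite strand.

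The members with no or little described protease activity, and the less studied Usp40, overlapped as well. Usp39 stood at 117, 95.8 and 163 CPM in knockout, against 85.01, 174 and 167 CPM in wild-type libraries. Usp50 stood at 3.29, 3.41 and 2.44 CPM in knockout and at 1.18, 2.04 and 2.79 CPM in wild-type libraries. Usp6nl lay between 12.4 and 33.9 CPM in knockout and between 21.8 and 34.4 CPM in wild-type libraries. Usp40 stood at 44.6, 27.5 and 12.2 CPM in knockout and at 78.5, 49.8 and 24.8 CPM in wild-type libraries, the values of both genotypes interleaving.

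**Figure D3:**
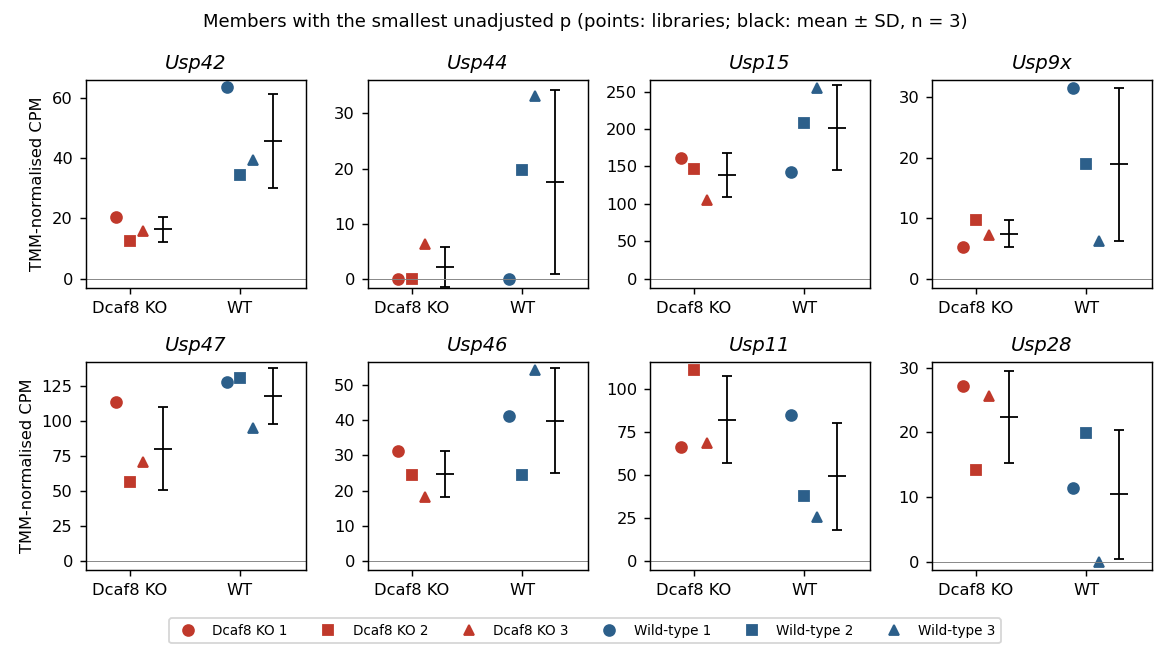
TMM-normalised CPM of the 8 members with the smallest unadjusted p, in knockout (red, left) and wild-type libraries (blue, right); black marks are means ± SD (n = 3). For Usp42 alone the groups do not overlap, with knockout libraries at 12.5 to 20.6 CPM.

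The spread between libraries set what could be seen for each gene. The biological coefficient of variation estimated by edgeR is the spread between libraries of 1 genotype beyond counting error. It includes the spread from sampling and amplifying 50 cells. Its median was 42.6% over the members and 51.0% over all genes tested. This coefficient ran from 15.5% for Usp5 and 17.3% for Usp4 to 195% for Usp45 and 238% for Usp44. Across the 43 genes it was smaller where the mean level was higher (Spearman's rho = -0.895 over 43 genes; the genes share libraries and depth). In the range of 50 to 100 CPM the members' median was 29.4% (12 genes), against 29.96% over all genes of that range. At 10 to 50 CPM it was 52.996% (16 genes), against 53.5% over all genes. At 100 CPM or more the members' median was higher than that of all genes, at 25.3% (7 genes) against 20.6%.

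Of the 43 members, 36 had at least 10 counts in every library and 7 did not, namely Usp12, Usp28, Usp31, Usp44, Usp45, Usp49 and Usp51. Usp45 had 0, 88 and 213 counts in knockout libraries, against 0, 114 and 426 counts in wild-type libraries. Usp31, linked to NF-kB signalling, had 117, 16 and 366 counts in knockout libraries, against 215, 7 and 0 counts in wild-type libraries. Usp49 had 9, 57 and 39 counts in knockout libraries, against 18, 74 and 41 counts in wild-type libraries, and Usp51 had 13, 18 and 1 against 15, 0 and 41 counts. No member was missing from all libraries of 1 genotype.

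**Figure D4:**
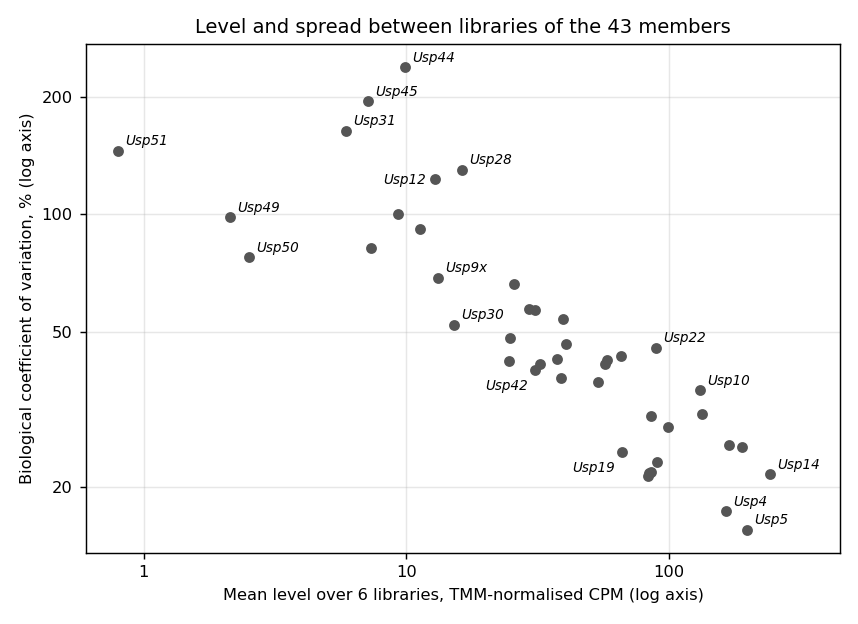
Biological coefficient of variation (percent, log axis) against mean level over the 6 libraries (TMM-normalised CPM, log axis) for the 43 members, each point 1 gene. Usp5 and Usp4 show the smallest spread, at 15.5% and 17.3%, and Usp44 and Usp45 the largest, at 238% and 195%.

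Many member promoters held many CpG dinucleotides. In RefSeq's promoter table for GRCm38.p6, 33 of the 43 members had an entry, with 34 starts in all. Usp1, Usp5, Usp9x, Usp14, Usp22, Usp33, Usp39, Usp42, Usp44 and Usp53 had none. In the 250 bases before the start the median number of CpG dinucleotides was 23.5 over these 34, against 6 over all 32851 promoters, and 58.8% held at least 20, against 17.9%. The members had passed the count rule, whereas all promoters were taken whether or not their genes were counted. Family and count rule thus cannot be told apart in these shares. The 6 promoters of members under 10 counts in some library held 5 to 30 (median 13), and the other 28 held 2 to 55 (median 24.5). The following 4 windows, chosen after the values were seen, are those of Usp4, whose spread was among the smallest, of the close paralogues Usp46, counted in every library, and Usp12, with 5 counts in one, and of Usp50, which holds the fewest CpG. They run 5′ to 3′ on the gene's strand up to the base before the start, with each CpG in capitals.
Usp4: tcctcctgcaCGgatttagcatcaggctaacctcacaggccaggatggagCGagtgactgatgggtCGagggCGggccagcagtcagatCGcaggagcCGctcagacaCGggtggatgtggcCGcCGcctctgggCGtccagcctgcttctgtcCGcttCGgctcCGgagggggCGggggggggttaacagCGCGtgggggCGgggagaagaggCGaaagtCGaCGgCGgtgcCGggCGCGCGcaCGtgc
Usp46: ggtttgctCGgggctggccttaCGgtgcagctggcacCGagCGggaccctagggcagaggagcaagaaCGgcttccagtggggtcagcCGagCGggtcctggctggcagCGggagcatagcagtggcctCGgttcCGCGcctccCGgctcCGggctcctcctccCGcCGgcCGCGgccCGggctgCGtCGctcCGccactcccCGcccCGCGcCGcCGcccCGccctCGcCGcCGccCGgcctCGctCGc
Usp12: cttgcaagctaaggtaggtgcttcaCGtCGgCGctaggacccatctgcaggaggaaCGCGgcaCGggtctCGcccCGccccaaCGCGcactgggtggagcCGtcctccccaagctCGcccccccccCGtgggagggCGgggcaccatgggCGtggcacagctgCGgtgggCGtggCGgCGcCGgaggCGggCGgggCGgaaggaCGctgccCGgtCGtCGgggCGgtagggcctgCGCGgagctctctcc
Usp50: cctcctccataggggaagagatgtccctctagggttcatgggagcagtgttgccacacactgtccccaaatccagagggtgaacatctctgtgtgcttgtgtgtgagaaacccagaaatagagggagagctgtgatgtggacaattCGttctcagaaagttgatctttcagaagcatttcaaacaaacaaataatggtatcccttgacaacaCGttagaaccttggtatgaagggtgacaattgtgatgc
Usp4 lies on the plus strand (chr9:108347581-108347830) and its window holds 26 CpG, Usp46 on the minus strand (chr5:74068412-74068661) holds 33, Usp12 on the minus strand (chr5:146794957-146795206) holds 30, and Usp50 on the minus strand (chr2:126783461-126783710) holds 2, all in GRCm38.p6. The biological coefficient of variation was 123.2% for Usp12 and 41.4% for Usp46, at mean levels of 12.9 and 32.3 CPM. A relation of CpG number to spread was not tested. The GC box GGGCGG, searched on both strands, occurred in 70.6% of the member promoters and in 32.7% of all promoters. The letters TATAAA on either strand occurred in 5.88% of the member promoters and in 12.4% of all, and CCAAT in 14.7% and 33.8%. A match describes the letters of the window, not a bound site, and here too all promoters had passed no count rule.

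Several paralogues stood at unequal levels in every library. Usp46 and Usp12, which share the cofactors WDR48 and WDR20, stood at 6.50, 5.09 and 3.76 CPM per kb and at 8.003, 1.88 and 0.0523 CPM per kb in knockout replicates 1 to 3, against 8.51, 5.08 and 11.2 and 2.21, 5.33 and 0.399 CPM per kb in wild-type replicates 1 to 3. Usp12 thus exceeded Usp46 in knockout replicate 1 and slightly in wild-type replicate 2. Of the trio Usp4, Usp11 and Usp15, Usp4 led in each library, at 45.4 ± 4.28 CPM per kb in knockout and 44.5 ± 3.82 in wild-type libraries (SD, n = 3 each). Usp11, which is X-linked, stood at 23.6 ± 7.29 CPM per kb in knockout and 14.2 ± 8.97 in wild-type libraries, and Usp15 at 12.0 ± 2.55 and 17.5 ± 4.89. The log2 fold changes of Usp11 and Usp46 were 0.72 ± 0.45 and -0.68 ± 0.42 (SE), neither past the test, and that of Usp4 was 0.04 ± 0.16 (SE). As single libraries were left out, Usp11 moved between 0.41 (wild-type replicate 3 out) and 1.32 (wild-type replicate 1 out), and Usp46 between -0.95 (wild-type replicate 2 out) and -0.39 (wild-type replicate 3 out). At 1.32 and at -0.95 the unadjusted edgeR p was under 0.05.

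Usp25, a regulator of innate immune signals, stood at 18.05 ± 0.655 CPM per kb in knockout and 16.9 ± 2.59 in wild-type libraries, above Usp28 in every library. Usp16 stood above Usp45 in every library, as did Usp54 above Usp53. Usp33 exceeded Usp20 in all 6 libraries, by little in knockout replicate 1 (5.71 against 5.06 CPM per kb). On the opposite strand Usp33 shares 1478 bases of exon with Gm43857 and 745 with Gm42967 in the GRCm38 annotation. Usp36, a nucleolar protease, and Usp42 stood at 6.98 ± 4.93 and 3.17 ± 0.782 CPM per kb in knockout and at 7.37 ± 0.827 and 8.86 ± 3.01 in wild-type libraries (SD, n = 3 each). The SAGA paralogues of Usp22 had few counts, with at most 21 counts of Usp27x and at most 41 of Usp51 in any library.

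**Figure D5:**
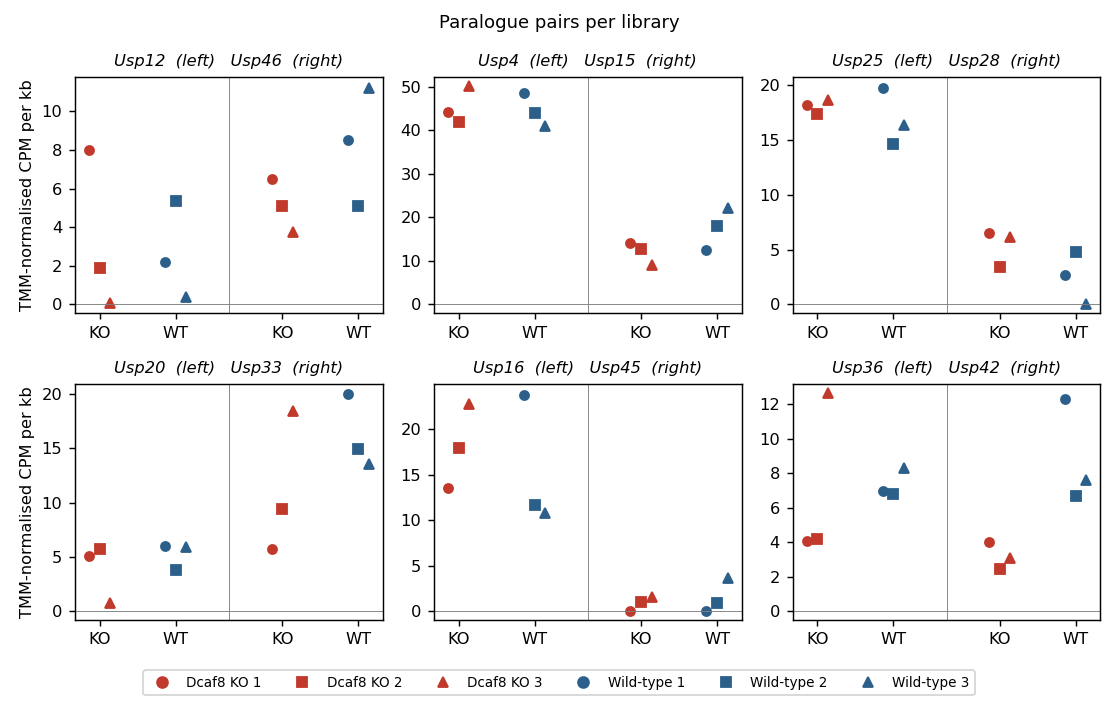
TMM-normalised CPM per kb of 6 paralogue pairs in each library, the first gene of a pair left and the second right of the grey line, with knockout (red) left of wild-type (blue) for each gene. Usp4 lies above Usp15, Usp25 above Usp28, Usp33 above Usp20 and Usp16 above Usp45 in all 6 libraries, while Usp12 and Usp46 cross.

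Cofactors and substrates of the USPs were compared in the same fit. Their list was chosen with earlier results of these data known, so its shares beside those of all genes are description only. Of 51 genes, 0 passed over all genes by edgeR, and 5 had an unadjusted p under 0.05 (9.80%, against 5.82% of all genes). By direction 1 was higher, against 3.47% of all genes, and 4 were lower, against 2.35% of all genes. The median log2 fold change over the 51 was -0.08. Groups did not overlap for 7 of the 51 (13.7%, against 10.3% of all genes). In 6 of the 7 knockout was lower, where that held for 4.43% of all genes, and these were Tank, Myc, Nfe2l2, Keap1, Tab2 and Prpf3. The one with knockout higher was Stam2. Tank, a TRAF-binding adaptor that recruits USP10 to dampen NF-kB signals, stood at 56.6, 59.9 and 64.6 CPM in knockout and at 97.8, 119 and 119.8 CPM in wild-type libraries. Myc, a substrate of USP28, stood at 527, 539.5 and 488 CPM in knockout and at 718, 648 and 743 CPM in wild-type libraries. Nfe2l2, which encodes the oxidative stress factor NRF2, stood at 198, 167 and 166 CPM in knockout and at 246, 262 and 278 CPM in wild-type libraries. For these 3 genes, named for their p, all knockout libraries lay lower (log2 fold changes -0.90 ± 0.21, -0.44 ± 0.10 and -0.56 ± 0.14, SE). DESeq2 called these 3 of the 51, against 0.471% of all genes, where edgeR called 0 (DESeq2 adjusted p = 0.00391, 0.00513 and 0.0313; edgeR adjusted p = 0.739 for each).

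Partners in stable complexes with USPs were measured as well. Wdr48, the activator of USP1, USP12 and USP46, stood at 89.2 ± 20.9 CPM in knockout and 102 ± 25.0 in wild-type libraries (SD, n = 3 each). The SAGA subunit gene Eny2 stood at 145 ± 12.4 CPM in knockout and 153 ± 17.4 in wild-type libraries, Gmps, the partner of USP7, at 128 ± 12.6 and 135 ± 6.47, and G3bp1, the partner of USP10, at 547 ± 109 and 566.5 ± 61.9 CPM. Trp53 stood at 477 ± 49.2 CPM in knockout and 440.1 ± 60.3 in wild-type libraries, and Mdm2 at 124 ± 27.0 and 151 ± 54.3 CPM. Keap1, whose product marks NRF2 for degradation, stood at 98.4, 88.4 and 87.9 CPM in knockout and at 132, 102 and 159.5 CPM in wild-type libraries. Tab2, a ubiquitin-binding adaptor of NF-kB signalling, stood at 5.79, 23.2 and 26.6 CPM in knockout and at 34.3, 32.2 and 39.5 CPM in wild-type libraries. Prpf3, a spliceosome component, stood at 67.02, 47.2 and 61.4 CPM in knockout and at 73.2, 74.1 and 168 CPM in wild-type libraries. None of these 3 passed. Stam2, an endosomal partner of USP8, stood higher in each knockout library (72.9 ± 19.97 against 37.7 ± 3.61 CPM) without passing (edgeR adjusted p = 0.744).

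Deubiquitinases of other families were read in the same fit, with 0 of 32 tested genes called by edgeR and by DESeq2, 3 at an unadjusted p under 0.05 (9.38%, against 5.82% of all genes) and a median log2 fold change of 0.10, against 0.01 over all genes. Groups did not overlap for 4 of the 32 (12.5%, against 10.3% of all genes). This list too was chosen with earlier results of these data known, and its shares are description only. Otud4, an OTU-family enzyme, stood at 12.3, 17.1 and 15.0 CPM in knockout and at 29.1, 37.6 and 69.4 CPM in wild-type libraries (log2 fold change -1.65 ± 0.47, SE; adjusted p = 0.739). Mindy1, specific for long K48 chains, stood at 71.5, 107 and 71.5 CPM in knockout and at 102, 154 and 127 CPM in wild-type libraries (log2 fold change -0.65 ± 0.25, SE). Otud5 stood at 134, 112 and 116 CPM in knockout and at 92.4, 91.7 and 87.0 CPM in wild-type libraries (log2 fold change 0.42 ± 0.18, SE). Summed over the list, these enzymes took 2542, 2318 and 2408 CPM in knockout libraries, against 2221, 2396 and 2453 CPM in wild-type libraries.

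Of the 11 candidates under the count rule, 7 had no count in any library: Usp13, the imprinted Usp29 and the 5 Usp17-like genes. The other 4 were patchy. Usp35 had 172 counts in wild-type replicate 2 and 0 elsewhere, and Usp43 had 101 counts in knockout replicate 3 and 1 in knockout replicate 1. Usp26 and Usp27x had at most 13 and 21 counts. Among relatives that the name rule does not cover, Uspl1, a SUMO protease, stood at 46.4 ± 22.1 CPM in knockout and 90.6 ± 24.3 in wild-type libraries (SD, n = 3 each; edgeR adjusted p = 0.851). Cyld, a protease that restrains NF-kB, stood at 93.5, 31.0 and 57.1 CPM in knockout, against 122.7, 113 and 8.22 CPM in wild-type libraries. The interferon-induced Usp18, left out by the rule, stood at 21.6, 48.0 and 96.3 CPM in knockout, against 22.3, 42.8 and 56.7 CPM in wild-type libraries, and its groups overlapped.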

How the data were processed

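The authors deposited a table of raw read counts per Ensembl gene, 1 column per library and no pooling, from full-length cDNA of 50 sorted cells that was tagmented and amplified, per the labels' protocols. Trimmomatic 0.39, HISAT2 2.2.1, Picard 2.26.1, HTSeq 1.99.2, DESeq2 1.38.3 and mm39 are named without roles, per the submitters' processing notes. The sources used here name no strand setting and no annotation release. Reads carry no molecular identifiers, so floors (3 counts) cover counting error only, and reads of overlapping or opposite-strand genes, and of close paralogues, could have been exchanged.

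Groups came from the labels. Symbols matched 52081 identifiers. The test was edgeR 4.0.16 (R 4.3.3) with filterByExpr (minimum count 10, total 15), TMM, robust dispersions and the newer quasi-likelihood fit, genotype as the only term; all 43 members passed the filter. Standard errors were derived from F, and P-values adjusted by Benjamini-Hochberg (threshold 0.05). Lengths are exons of basic protein-coding transcripts in GENCODE vM21 (GRCm38, another build than the counts). The main edgeR fit was also run on counts simulated from the means and dispersions of these libraries. Its outcome is not reported here and no result rests on it. Alternatives were other scaling and filters, DESeq2 1.42.0, limma 3.58.1 voom with sample weights, legacy fit, replicate block, and libraries left out. Members and lists were chosen with earlier results of these data known. Genes given in full are those with a known role in HSCs, the 8 smallest p, the 3 highest and lowest per kb, paralogue pairs, and 3 per other list by p. Other partners, candidates under the count rule and relatives were named after their values were seen.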

Additional observations from a re-analysis of the deposited data

How the results depend on the processing

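By edgeR and limma-voom no member was called under any alternative, nor by DESeq2. DESeq2 called 68 genes in all (0.471%) and 3 of the 51 cofactors and substrates, against 0 by edgeR, with a Dcaf8 log2 fold change of -2.32. Members at an unadjusted p under 0.05 numbered 1 with DESeq2, with limma-voom and with the legacy fit, against 2, and 1 to 6 as single libraries were left out, the 6 (2 higher, 4 lower) being without wild-type replicate 1, where the share of all genes was 9.37%, against 5.82%. Usp42 kept such a p in all 14 alternatives. Usp3 reversed to 0.37 with limma-voom and 0.0089 with the legacy fit. Without wild-type replicate 2 and knockout replicate 3 together, chosen after seeing the data, the difference of summed levels was -285 CPM, against -131 CPM with all libraries and -212 CPM (wild-type replicate 2 out) to -53.4 CPM (wild-type replicate 3 out) with single libraries left out, and Usp1 (-0.041), Usp8 (-0.11), Usp16 (-0.15), Usp4 (-0.053) and Usp14 (-0.081) reversed. Leaving out single libraries gave -0.046 to 0.36 for Usp1, -0.39 to 0.29 for Usp3, -0.48 to 0.32 for Usp7, -0.11 to 0.52 for Usp8, -0.48 to 0.24 for Usp10, -0.043 to 0.10 for Usp4 -0.025 to 0.34 for Usp14 and 0.022 to 0.68 for Usp16, and a members' median of -0.13 to 0.05. The cause of these changes was not tested. Same-numbered libraries correlated at -0.04 to 0.06 in their deviations from the genotype means, and libraries of unlike number at -0.05 to 0.04. No pairing by number was seen, which does not exclude one. With the replicate block 3 members had an unadjusted p under 0.05, 0 were called, and the members' median was -0.07. With 3 libraries a genotype, intervals were wide for members under about 50 CPM.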
